A study of Mus musculus with 8 samples.

Results

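The leptin receptor gene *Lepr* and the genes of its endospanin partners, *Leprot* and *Leprotl1*, were followed in ovaries of WT and GOAT KO mice. The members are the 3 rows of the gene count table with these symbols, of 45583 rows in all, and each of the 3 passed the filter on low counts that left 16601 genes for testing. They were selected on their gene counts and splice junction reads in the WT and GOAT KO libraries, with the difference between the genotypes already known, so their levels in the groups below are a description and carry no test.

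Each library held RNA of 1 ovary of 1 female mouse on the C57/Bl6 background, 3 weeks old, with 4 mice of genotype WT (animals 1118, 1119, 1120 and 1121) and 4 of genotype GOAT KO (1139, 1140, 1141 and 1146). No treatment is named for either group. The GOAT enzyme, ghrelin O-acyltransferase, attaches the fatty acid that ghrelin needs to act on its receptor, and is encoded by *Mboat4*. The knockout is carried by every cell of the animal, and the mice came from crosses of heterozygous parents that also gave the WT mice.

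Leptin, a hormone of fat cells, binds the leptin receptor at the cell surface, and the receptor signals through the kinase JAK2 to STAT transcription factors. A single gene gives a long form with the whole intracellular signalling part and short forms that lack most of it. The endospanins are small membrane proteins of the endosome and Golgi, encoded by *Leprot* (endospanin 1) and *Leprotl1* (endospanin 2), that hold back receptors of leptin and growth hormone from the cell surface. In the ovary, leptin receptor is known from granulosa and theca cells.

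Both endospanin genes have 4 coding exons of matching sizes, 16, 76, 187 and 114 bases, which sum to 393 bases. Their coding bases were identical at 274 of the 393 positions (69.7%), with 59.2% identity in exon 2 and 69.0% in exon 3. These 2 exons are shown because they show how far the paralogs differ and so where a short read can be placed. The sequences are those of the GENCODE transcripts for GRCm38, written 5′ to 3′ in the direction of the gene, and capitals mark the bases that differ between the paralogs.
Leprotl1 exon 2, chr8:34140761-34140836, minus strand: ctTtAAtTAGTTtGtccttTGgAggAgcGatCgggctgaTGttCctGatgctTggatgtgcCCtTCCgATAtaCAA
Leprot exon 2, chr4:101652399-101652474, plus strand: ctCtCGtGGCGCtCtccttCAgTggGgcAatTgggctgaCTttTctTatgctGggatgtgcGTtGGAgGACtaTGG
Leprotl1 exon 3, chr8:34138854-34139040, minus strand: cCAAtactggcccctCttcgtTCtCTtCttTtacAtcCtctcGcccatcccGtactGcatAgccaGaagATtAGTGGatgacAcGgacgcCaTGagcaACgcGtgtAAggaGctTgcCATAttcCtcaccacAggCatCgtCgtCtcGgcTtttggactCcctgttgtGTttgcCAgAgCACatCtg
Leprot exon 3, chr4:101656109-101656295, plus strand: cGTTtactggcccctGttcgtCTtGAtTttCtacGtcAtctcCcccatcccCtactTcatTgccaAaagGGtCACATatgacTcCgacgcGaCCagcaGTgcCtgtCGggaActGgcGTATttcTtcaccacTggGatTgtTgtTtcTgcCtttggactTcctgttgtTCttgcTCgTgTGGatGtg
No stretch of 50 bases, the length of a read, was shared between the reference transcripts of the 3 genes. The longest run that *Leprotl1* had in common with another member was 17 bases, so a read without mismatches belongs to 1 of the paralogs.

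The forms of the leptin receptor part from each other after the last exon they share. The last 24 bases of the shared coding sequence are shown in lower case, and capitals mark the start of each form's own end, because reads across these junctions tell the forms apart.
Ob-Ra, short form, own end from chr4:101811348-101811362, plus strand: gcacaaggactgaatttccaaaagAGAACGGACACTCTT
Ob-Rb, long form, own end from chr4:101814448-101815266, plus strand: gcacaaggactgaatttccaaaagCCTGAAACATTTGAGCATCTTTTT
Ob-Rc, short form, own end from chr4:101792071-101792079, plus strand: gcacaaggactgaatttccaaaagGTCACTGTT
Ob-Ra has 894 codons and Ob-Rb has 1162. Ob-Rc has 892 codons and ends by reading on past the last shared exon, so no junction is particular to it.

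The counts on genes totalled between 16147216 and 19481798 in the 8 libraries. *Mboat4* had 1, 1, 1 and 3 counts in the WT libraries and 5, 7, 7 and 8 in the GOAT KO libraries, so few that they carry a large counting error. All GOAT KO libraries lay above all WT libraries, as in 1.64% of all genes tested. *Mboat4* itself did not pass the filter on low counts. The part of the gene that the allele removes is not given in the sources used here, and counts outside that part would check nothing, so the labels were not checked by this gene. The groups are called by their labels, WT and GOAT KO. Granulosa cell markers summed to 4765 to 5784 CPM (counts scaled to library size by the TMM method), theca and steroidogenic cell markers to 2305 to 3472 CPM and oocyte markers to 989 to 1224 CPM over the 8 libraries, all cell types of the labelled tissue. Single markers near 0 were *Insl3* of the theca list (at most 0.697 CPM) and *Cd3e* of T cells (at most 0.186 CPM). Of 45 tested markers of granulosa, theca, oocyte, stromal, endothelial, leukocyte and oviduct cells, 0 were called by edgeR, against 1.67% of all genes tested, and 3 had an unadjusted p under 0.05. Of 7 adipocyte markers, 5 were tested and all 5 were called higher in the libraries labelled GOAT KO, against 0.958% of all genes tested, with a summed level of 637 CPM in GOAT KO 1139, at most 37.1 CPM in the other GOAT KO libraries and 15.2 to 33.0 CPM in the WT libraries. In whole ovaries, fewer cells of a type and less RNA per cell cannot be told apart.

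*Leprotl1* expression in the libraries labelled GOAT KO was 47.8% of the WT level over all 8 libraries and 50.5% in a set of 6 of them, whereas *Leprot* and *Lepr* showed no such shift. *Leprotl1* (ENSMUSG00000031513, chr8:34135572-34147033, minus strand) stood at 43.0, 50.95, 54.49 and 52.11 CPM in WT 1118, 1119, 1120 and 1121, on 695 to 994 counts. In GOAT KO 1139, 1140, 1141 and 1146 it stood at 22.22, 23.92, 24.13 and 25.65 CPM, on 372 to 472 counts. Every library labelled GOAT KO lay below every WT library, and the GOAT KO libraries were closer to each other than the WT libraries. The mean was 50.1 ± 4.98 CPM for WT (SD, n = 4) and 23.98 ± 1.40 CPM for GOAT KO (SD, n = 4), or 47.8% of WT. The log2 fold change of GOAT KO over WT was -1.06 (SE 0.085).

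Over all 16601 genes tested, 0.717% were called lower, by the study's thresholds of an unadjusted p under 0.05 and a log2 fold change under -0.5, and in 1.27% all GOAT KO libraries lay below all WT libraries. Only 11 of the tested genes had a lower log2 fold change than *Leprotl1*, and none of those 11 was expressed at its mean CPM or above, a level that 6826 genes reached. Nothing is read from this rank, since the gene was chosen for the contrast. The study set aside 1 library of each group without naming them, and the set of 6 used here, without WT 1120 and GOAT KO 1139, was a choice of the re-analysis. In it, the *Leprotl1* level was 48.7 ± 4.96 CPM for WT (SD, n = 3) and 24.6 ± 0.945 CPM for GOAT KO (SD, n = 3), with a log2 fold change of -0.99 (SE 0.088).

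*Leprot* (ENSMUSG00000035212, chr4:101647718-101659364, plus strand), the paralog of *Leprotl1*, had 1062, 1320, 1214 and 1359 counts in the WT libraries. It had 1158, 1302, 1445 and 1278 counts in the libraries labelled GOAT KO. The groups overlapped, as they did in most genes: all GOAT KO libraries lay above all WT libraries in 1.64% of the genes tested. The mean was 69.9 ± 4.36 CPM for WT and 74.2 ± 4.203 CPM for GOAT KO (SD, n = 4 each), and the difference of the means was about as large as the SD within each group. The log2 fold change was 0.09 (SE 0.066) with all libraries and 0.09 (SE 0.067) without WT 1120 and GOAT KO 1139.

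*Lepr* (ENSMUSG00000057722, chr4:101717404-101815352, plus strand), the receptor itself, varied most between mice of 1 genotype. The WT libraries had 644, 630, 421 and 815 counts, with the lowest value in WT 1120 and the highest in WT 1121. The libraries labelled GOAT KO had 626, 744, 715 and 545 counts. Scaled to library size, they lay between 31.6 and 45.4 CPM and overlapped the WT libraries at 23.1 to 44.4 CPM, with GOAT KO 1140 highest of all. The mean was 35.6 ± 9.17 CPM for WT and 37.8 ± 5.70 CPM for GOAT KO (SD, n = 4 each). The log2 fold change was 0.09 (SE 0.177), and its sign turned when WT 1120 was left out (-0.08), when GOAT KO 1140 was left out (-0.01) and without both WT 1120 and GOAT KO 1139 (-0.07, SE 0.128).

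**Figure D1:**
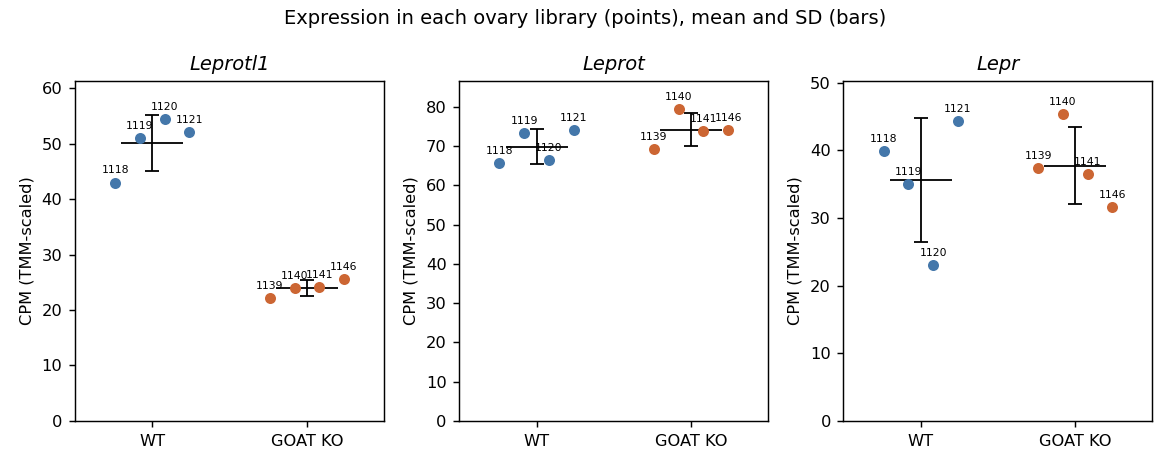
Level of *Leprotl1*, *Leprot* and *Lepr* in TMM-scaled CPM (vertical axes, each from 0) in each library labelled WT or GOAT KO, with animal numbers beside the points and mean ± SD as black bars (n = 4). The 4 GOAT KO libraries sit between 22.2 and 25.7 CPM for *Leprotl1*, all below the lowest WT library at 43.0 CPM, while the groups overlap for *Leprot* and *Lepr*.

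To compare levels between the genes, CPM were divided by the length of each gene's exons (2879 bases for *Leprotl1*, 1898 for *Leprot* and 7049 for *Lepr*). In WT ovaries *Leprot* was the most abundant with 36.8 ± 2.30 CPM per kb, followed by *Leprotl1* with 17.4 ± 1.73 and *Lepr* with 5.05 ± 1.30 (SD, n = 4). The order was the same in the libraries labelled GOAT KO, where *Leprot* stood at 39.1 ± 2.21, *Leprotl1* at 8.33 ± 0.488 and *Lepr* at 5.36 ± 0.809 CPM per kb. Neighbours in this order did not overlap in either group with these lengths. The length for *Lepr* covers the exons of all its forms, the long end included. With the 5542 bases of the Ob-Ra reference transcript in its place, *Lepr* and *Leprotl1* would overlap in GOAT KO. The gap between the lower pair was narrow in GOAT KO, where the lowest *Leprotl1* library had 7.72 CPM per kb and the highest *Lepr* library 6.44.

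The balance of the endospanin transcripts moved with *Leprotl1*. Per kb of exon, the ratio of *Leprotl1* to *Leprot* lay between 0.431 and 0.540 in the WT libraries and between 0.199 and 0.228 in the libraries labelled GOAT KO. The ratio of *Lepr* to *Leprot* did not move in the same way, with 0.137 ± 0.0330 in WT and 0.137 ± 0.0170 in GOAT KO (SD, n = 4 each). The sum of both endospanin genes was 49.6 to 57.1 CPM per kb in WT and 44.2 to 50.2 in GOAT KO. The means were 54.2 ± 3.38 and 47.4 ± 2.48 (SD, n = 4 each). The ranges overlapped only through WT 1118 at 49.6 and GOAT KO 1140 at 50.2.

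Across the 8 libraries, log2 CPM of *Leprot* and *Lepr* had a Pearson correlation of 0.51, and of 0.48 after the group means were subtracted. *Leprotl1* had a correlation of -0.42 with *Leprot* and of -0.29 with *Lepr*, which were 0.45 and -0.50 after the group means were subtracted. All of these points share the same library scaling, and the values are given as a description.

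The splice junction reads come from the same libraries and were used to choose the members, so they give no separate support. They are described here for *Leprotl1*. Its last intron, intron 3 between exon 3 and exon 4, was crossed by 26, 39, 33 and 39 reads in the WT libraries and by 5, 23, 23 and 11 in the libraries labelled GOAT KO. All GOAT KO libraries again lay below all WT libraries for this junction, which is the one of the gene listed in all 8. How often junctions of other genes separate the groups in this way was not tested. Intron 2 was listed in WT 1120 with 32 reads, WT 1121 with 36, GOAT KO 1141 with 16 and GOAT KO 1146 with 7, and in no other library. Intron 1 had 4, 5 and 3 reads in WT 1118, 1120 and 1121 and 4 and 3 reads in GOAT KO 1140 and 1141.

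A junction that a library does not list cannot be read as absent. Of 40345 annotated junctions with an average of at least 20 reads where listed, 6221 (15.4%) were unlisted in at least 1 library. Of the 24 introns in the reference transcripts of the 3 members, 8 were listed in all 8 libraries and 2 in none. For this reason no upper limit is drawn from an unlisted junction.

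Because unlisted junctions count as 0 in any share, the planned tests of the spread of reads over the introns of *Leprotl1* and *Leprot* are not reported. In *Leprot*, intron 2 was crossed by 40, 25, 22 and 30 reads in the WT libraries and by 28, 30, 35 and 22 in the libraries labelled GOAT KO, with overlapping groups. Its intron 1 was listed in 6 libraries with 2 to 4 reads each.

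The assembled transcripts followed the counts. The transcript assembled over *Leprotl1* on its own strand had a read coverage of 14.1, 18.1, 17.2 and 16.5 per base in the WT libraries. Coverage was 7.43, 7.96, 7.98 and 8.45 in the libraries labelled GOAT KO. All 4 exons were joined in WT 1120, WT 1121 and GOAT KO 1141, the same libraries in which introns 1 and 2 were both listed.

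Within intron 1 of *Leprotl1* (chr8:34140837-34146684, 5848 bases), the assembly held a transcript on the opposite strand in all 4 libraries labelled GOAT KO and in no WT library. It was found while looking at the locus, so it is a description without a test. In GOAT KO 1139 it ran from 34145945 to 34146252 with a coverage of 13.8, in GOAT KO 1140 from 34145946 to 34146231 with 13.99, and in GOAT KO 1146 from 34145946 to 34146276 with 10.2. In GOAT KO 1141 it began at 34145949 with a coverage of 13.03 and had 6 exons, the first of which was joined by 4 reads across an unannotated junction (chr8:34146082-34161194) to exons that ended at 34170840, beside the annotated end of *Saraf* (chr8:34154575-34170821, plus strand), a regulator of calcium entry. The starts in the 4 libraries lay within a few bases of each other, and the coverage, averaged over all 6 exons in GOAT KO 1141, was above that of *Leprotl1* in the same libraries.

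The block covered by these transcripts, 332 bases long, lay 757 to 1088 bases downstream of the *Leprotl1* start. Of 9896 assembled blocks outside annotated exons of their strand, 0.101% were present in all 4 GOAT KO libraries and no WT library, and 0.101% showed the reverse. This block was the 1 block on chromosome 8 among the former. Single-exon transcripts on the same opposite strand, 928 to 1614 bases upstream of the *Leprotl1* start, were assembled in GOAT KO 1139, 1140 and 1146 with coverages of 2.53, 3.83 and 3.66, and in GOAT KO 1140 a further one covered 110 bases of *Leprotl1* exon 1. Single-exon transcripts carry the strand given by the assembler, and whether the libraries kept strand is not given in the sources used here.

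**Figure D2:**
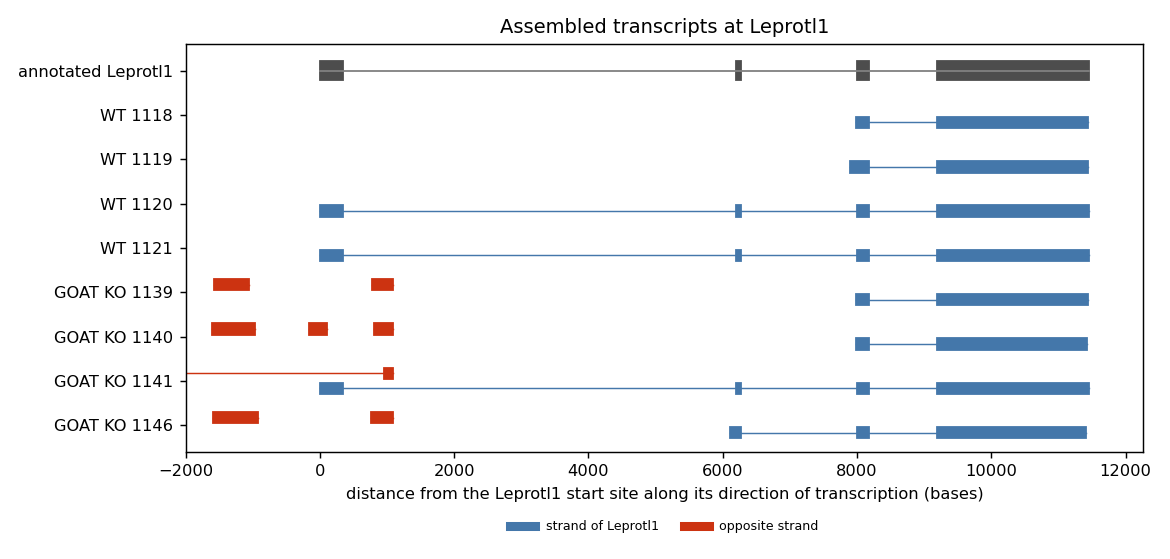
Transcripts assembled in each library around *Leprotl1* (rows), drawn by distance in bases from its start site, with boxes for exons and lines for introns, in blue on the strand of *Leprotl1* and in red on the opposite strand. Each of the 4 libraries labelled GOAT KO has a red box between 757 and 1088 bases downstream of the start, shortest in GOAT KO 1141, and the red transcript of GOAT KO 1141 runs beyond the left edge.

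*Leprotl1* lies beside the targeted gene on chromosome 8. *Mboat4* (chr8:34115030-34125182, plus strand) ends 10389 bases from the end of *Leprotl1*, and *Saraf* begins 7541 bases on the other side. Within 2 Mb of *Leprotl1*, 18 of 41 annotated genes were tested and 0 were called in either direction by edgeR or DESeq2, against 1.67% of all genes tested, and 2 (*Dctn6* and *Rbpms*) had an unadjusted p under 0.05 in edgeR. Their median log2 fold change was -0.02, between -0.44 and 0.40, whereas the median over all genes tested was 0.00.

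The nearest tested gene with a shift was *Dctn6*, a dynactin subunit that lies 26776 bases from *Leprotl1* beyond *Mboat4*. It had 1098, 1140, 1268 and 1296 counts in WT and 796, 815, 973 and 915 in the libraries labelled GOAT KO. All GOAT KO libraries lay below all WT libraries, as in 1.27% of all genes tested. The log2 fold change was -0.44 (SE 0.062), short of the fold threshold. Its adjusted p was 0.0739 by edgeR's quasi-likelihood test and 1.8e-06 by DESeq2, and ran from 1.8e-06 to 0.448 over the alternatives. The other nearest tested genes were *Rbpms*, which encodes an RNA-binding protein, at -0.28 (SE 0.093), *Gm10131* at 0.19 (SE 0.175), *Saraf* at -0.13 (SE 0.080), *Dusp4*, a phosphatase of MAP kinases, at -0.12 (SE 0.169), and *Tnks*, a poly-ADP-ribosyltransferase, at -0.02 (SE 0.116). The groups overlapped for each of these 5 genes.

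*Leprot* and *Lepr* lie side by side on chromosome 4. In the annotation used they do not overlap, with 58039 bases between them, no splice donor in common, and no junction read in any library that joined one to the other. Within 2 Mb of them, 28 of 69 annotated genes were tested, with a median log2 fold change of 0.02, and 1 was called, against 1.67% of all genes tested. This was *Dab1*, the adaptor of reelin signalling, named here after its value was seen. *Dab1* was 1804007 bases away and had 17 to 18 counts in WT libraries and 76 to 142 in libraries labelled GOAT KO, a log2 fold change of 2.70 (SE 0.208, adjusted p = 0.000487 by edgeR's quasi-likelihood test). The 3 nearest tested genes on each side were *E130102H24Rik* (-0.08), *Ak4* (0.14), *Dnajc6* (0.07), *Gm12791* (-0.14), *C130073F10Rik* (-0.22) and *Gm12792* (0.24), and none of these was called.

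**Figure D3:**
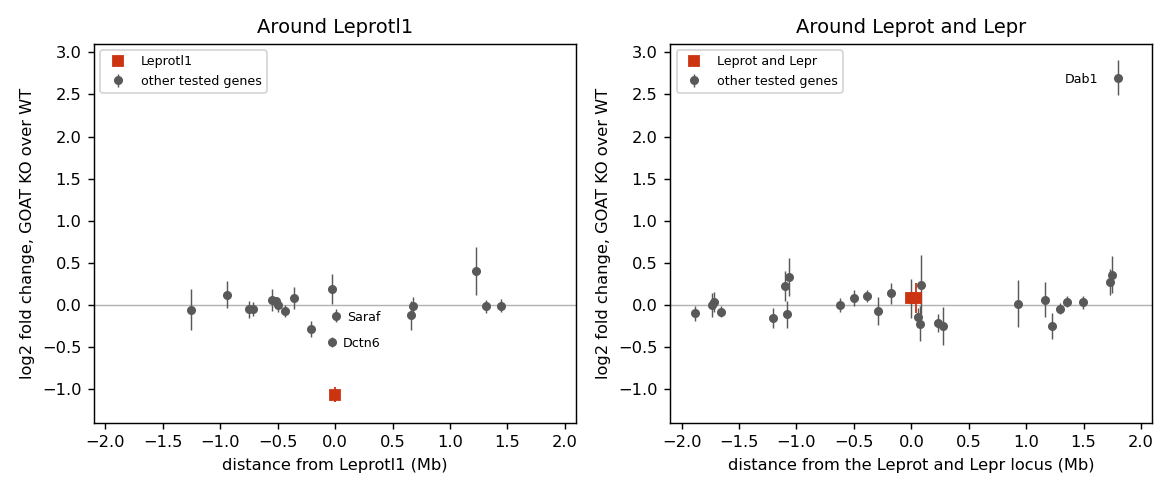
Log2 fold change of GOAT KO over WT with its SE (vertical axis) of tested genes within 2 Mb of *Leprotl1* (left) and of the *Leprot* and *Lepr* locus (right), by distance in Mb. *Leprotl1* at -1.06 stands below its neighbours, of which *Dctn6* at -0.44 is the lowest, and *Leprot* and *Lepr* lie at 0.09 each, with *Dab1* at 2.70 as the one called neighbour.

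Reads across the junctions of *Lepr* showed which ends of the receptor were present. From the last shared exon, 29, 14 and 12 reads in WT 1118, 1119 and 1121 and 16, 12 and 16 reads in GOAT KO 1139, 1140 and 1141 joined the end of Ob-Ra, the short form with the end printed above. WT 1120 and GOAT KO 1146 listed no read for this junction. No library listed a read to the end of Ob-Rb, the long form, against 99 reads to Ob-Ra in all. The share of the long form was 0 in each of the 6 libraries with reads at this place, in both groups alike. Since the lists are incomplete, no limit on the share is given and nothing is concluded about the groups.

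The assembled transcripts showed the same ends. In all 8 libraries a transcript covered the terminal exon of Ob-Ra and ended by chr4:101813576, and no transcript reached the terminal exon of Ob-Rb, which starts at chr4:101814448. In the libraries without reads to the Ob-Ra end, the assembly ran on past the last shared exon, to 101792308 in WT 1120 and to 101792124 in GOAT KO 1146, into the stretch that belongs to Ob-Rc.

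Along the whole of *Lepr*, with the end of Ob-Ra included, 133, 106, 64 and 136 annotated junction reads were listed in the WT libraries. The libraries labelled GOAT KO had 81, 135, 121 and 83, and the groups overlapped. WT 1120 had the fewest, as it had the fewest counts on the gene. Intron 16 was crossed by 21, 13, 9 and 21 reads in WT and 3, 17, 16 and 4 in GOAT KO, and intron 10 by 13, 10, 8 and 11 and by 8, 16, 12 and 7. Intron 6 was listed in no library, and in *Leprot* the same held for intron 3, where the assembly of *Leprot* broke in every library.

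**Figure D4:**
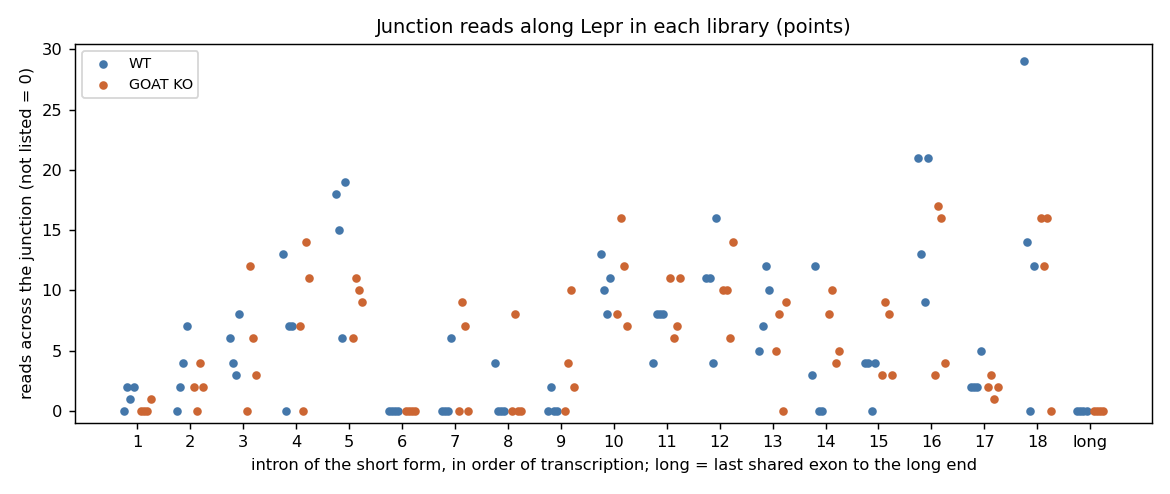
Reads across each annotated junction of *Lepr* (vertical axis), in order along the gene (horizontal axis), with 1 point per library labelled WT or GOAT KO. A junction that a library does not list is drawn at 0, which does not show its absence, the WT and GOAT KO points mix along the gene, and no library lists a read to the long end.

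The genes that act with the members were counted from lists by role. Of 20 genes of leptin receptor signalling, 18 were tested and 0 were called by edgeR or DESeq2, 0 at an unadjusted p under 0.05, with a median log2 fold change of -0.02 (-0.21 to 0.07), against 1.67% called over all genes tested (278 at the unadjusted threshold and 4 at an adjusted p under 0.05, or 0.0241%). The most expressed were *Foxo1*, the transcription factor that insulin and leptin signals keep out of the nucleus, at 1143 CPM in WT against 1170 in GOAT KO, and *Pik3r1*, the regulatory subunit of PI3 kinase, at 410.2 and 383 CPM. *Ptpn11*, a phosphatase that binds the receptor, had 233 and 244 CPM, *Irs1*, an insulin receptor substrate, 163 and 161, and *Pik3ca*, the catalytic PI3 kinase subunit, 129 and 130.1.

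*Lep*, the ligand, did not pass the filter on low counts. It had 1, 3, 0 and 6 counts in the WT libraries and 91, 3, 1 and 0 in the libraries labelled GOAT KO. The 91 counts were in GOAT KO 1139, the library with 637 CPM of adipocyte markers, and the other libraries had at most 6. Without GOAT KO 1139 the *Leprotl1* log2 fold change was -1.03, so it did not rest on that library.

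Growth hormone receptor signalling, the other pathway on which endospanins act, had 12 of 14 genes tested, with a median log2 fold change of -0.03, and 1 called, against 1.67% of all genes tested in either direction and 0.958% in the higher direction. *Igfals*, whose product keeps insulin-like growth factors in a large complex in blood, was called higher with 5 to 34 counts per library, 0.462 ± 0.149 CPM for WT and 1.11 ± 0.650 for GOAT KO (SD, n = 4 each). The fold change was 1.23 on the log2 scale (SE 0.424, adjusted p = 0.983 by edgeR's quasi-likelihood test), the groups overlapped, and it was not called without WT 1120 and GOAT KO 1139. *Ghr*, the growth hormone receptor, stood at 183 CPM in WT against 179 in GOAT KO, and its target *Igf1* at 264 and 260.4. *Socs2*, its feedback inhibitor, had 300.1 and 327 CPM, *Igf1r*, the receptor of IGF1, 158 and 145, and *Stat5b*, the transcription factor downstream of it, 94.5 and 92.7.

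Among 11 receptors of the gp130 type, the family of cytokine receptors to which *Lepr* belongs, 10 were tested and 1 was called lower, against 0.717% of all genes tested. This was *Il12rb1*, a subunit of the receptors of interleukins 12 and 23, at 13 to 40 counts per library and a log2 fold change of -0.72 (SE 0.294, adjusted p = 0.983 by edgeR's quasi-likelihood test), with overlapping groups. *Il12rb1* was not called without WT 1121, without GOAT KO 1140, 1141 or 1146, or by DESeq2. *Il6st*, gp130 itself, stood at 323 and 325 CPM and *Lifr*, the receptor of leukaemia inhibitory factor, at 86.5 and 85.3. *Il11ra1* had 40.8 and 41.7 CPM, *Osmr* 16.3 and 13.9, and *Il6ra*, the interleukin 6 receptor, 4.84 and 3.56 (log2 fold change -0.44, SE 0.169). For *Il6ra* all GOAT KO libraries lay below all WT libraries, as in 1.27% of all genes tested.

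The endosomal sorting complexes (ESCRT) carry receptors from the endosome to the lysosome, the route on which endospanins sit. Of 24 subunits, 22 were tested and 0 were called by edgeR or DESeq2, 0 at an unadjusted p under 0.05, against 1.67% of all genes tested, a share at which few or no calls fall in a list of this size. The median log2 fold change was 0.01 (-0.23 to 0.13). All GOAT KO libraries lay above all WT libraries for 1 subunit and below them for 1, against 1.64% and 1.27% of all genes tested. *Chmp4b*, which forms the membrane-cutting filament, had 164 CPM in WT against 155 in GOAT KO, and *Pdcd6ip*, which recruits it, had 162 and 156. The ATPases *Vps4b* and *Vps4a* that take the filament apart had 122 and 129 CPM and 82.3 and 87.5 CPM, and *Hgs*, which binds the cargo first, had 83.7 and 81.7.

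**Figure D5:**
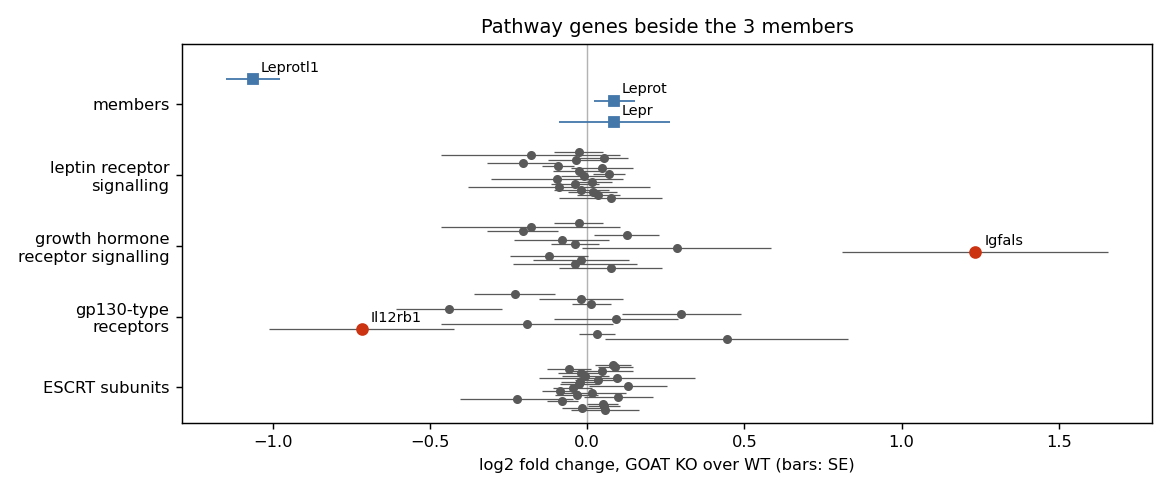
Log2 fold change of GOAT KO over WT with its SE (horizontal axis) of *Leprotl1*, *Leprot* and *Lepr* (blue squares) and of the tested genes of 4 lists (grey points, with called genes in red and named). *Leprotl1* at -1.06 lies to the left of every listed gene, and the called ones are *Igfals* at 1.23 and *Il12rb1* at -0.72.

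The genes most like each member across the 8 libraries were taken by Pearson correlation of log2 CPM among 15458 genes with a mean of at least 1 CPM. For *Leprotl1* they were *Tceanc2* (0.98), *Dctn6* (0.97) and *5830473C10Rik* (0.97), with log2 fold changes of -0.31, -0.44 and -0.49. A search across both groups favours genes with the same shift, so these fold changes follow from the choice. After the group means were subtracted the correlations were 0.96, 0.42 and 0.48. For *Leprot* they were *Dnase1l1* (0.98), *A130051J06Rik* (0.98) and *Ibtk* (0.96). For *Lepr* they were *Akr1c19* (0.98), *Gm17097* (0.96) and *Gprin3* (0.95). With 8 libraries and this many genes, high values arise in number, and they describe these libraries only.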

How the data were processed

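The authors sequenced 50-base single reads, aligned them to mm10 (GRCm38) with TopHat2 2.0.14, counted reads per known gene and deposited these counts without normalization; the counting tool and use of strand are not given in the sources used here. They deposited, per library, reads across splice junctions as counts and transcripts assembled with StringTie 1.0.4, whose coverage was used. Positions came from GENCODE M21, a later release than the authors' guide.

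Counts were tested with edgeR 4.0.16 in R 4.3.3 (TMM, filterByExpr with at least 10 counts and 15 in all, quasi-likelihood test with Benjamini-Hochberg adjustment), tested first on simulated data. Following the study, a call needed p under 0.05 before adjustment and a log2 fold change beyond 0.5 in either direction. The planned permutation tests of junction shares are not reported, since unlisted junctions decide the shares. The likeness measure used a pseudocount of 0.5. No pair of libraries of a group agreed within sampling noise (chi-square per gene 4.21 to 27.0).

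Members and lists were chosen with earlier results of these data known. Named genes are the members, *Mboat4*, the 3 nearest tested genes on each side, called list genes and the 5 most expressed of each pathway list, the 3 genes most like each member and marker genes near 0; *Lep* and *Dab1* were named after their values were seen. Alternatives were RLE size factors, DESeq2 1.42.0, no filter, 6 libraries and leaving out each library.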

Additional observations from a re-analysis of the deposited data

Results flagged for a closer look

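The plus-strand transcript in intron 1 of *Leprotl1* belongs to the assembled transcripts, which the comparisons of gene counts do not use. It was present in all 4 libraries labelled GOAT KO, where its lowest coverage was 10.2 reads per base in GOAT KO 1146, and it was assembled in no WT library. It was noticed at the locus of a member and was not tested.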

How the results depend on the processing

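Leaving aside the junction shares, which unlisted junctions decide, 103 of 120 values under alternatives for 10 results stayed close (fold changes with the same sign and within 1 SD, counts within 1.5 times), 14 moved and 3 turned sign. The *Leprotl1* log2 fold change stayed between -1.13 and -0.99 and that of *Leprot* between 0.05 and 0.12 under every alternative run. For *Lepr* it was -0.071 in the 6 libraries without WT 1120 and GOAT KO 1139, and ran from -0.079 to 0.208 with 1 library left out. The difference in the intron 3 share of *Leprotl1*, 4.31 percentage points with all libraries and decided by unlisted junctions, was -11.9 percentage points in the 6 libraries and ran from -3.93 to 13.99 with 1 library left out, and that of intron 2 in *Leprot*, decided in the same way, was 6.96 points and ran from 5.27 to 8.9 over the alternatives. Called genes numbered 691 without the filter on low counts and 231 to 437 with 1 library left out, the highest without WT 1120. Without the filter, 1 gene of leptin receptor signalling (*Lep*) and 2 near *Leprotl1* were called. Of the latter, *Mboat4* was higher and *Gm16793* lower in the libraries labelled GOAT KO. In the 6 libraries 0 genes of growth hormone receptor signalling and 2 gp130-type receptors were called; DESeq2 called 0 of the latter, and with 1 library left out they numbered 0 to 2. Genes called near *Lepr* numbered 1 to 2. The cause of these changes was not tested. No paired analysis was possible because the groups share no replicate numbers. The planned share of reads from donors shared by *Leprot* and *Lepr* gave no value, since the genes share none. Junction lists with few reads per library limit what can be said of introns.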
